A study of Sus scrofa with 6 samples.

Results

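The liver epithelium is held together by tight junctions, adherens junctions, desmosomes and gap junctions, and keratin filaments are anchored at the desmosomes. A list of 33 genes that encode these structures was followed in pig liver after extended partial hepatectomy (ePHx), with and without treatment by mesenchymal stromal cells (MSC). The members were chosen by gene name, with earlier results of these data known. They were 17 tight junction genes, 5 adherens junction genes, 6 desmosome genes, 3 gap junction genes and 2 keratins. Of the 33 genes 26 were matched to a transcript cluster, the array's unit for a gene or part of one, among 25385 clusters tested. The annotation symbol itself gave 21 of them, and 5 (TJP1, CGN, CDH2, DSP and GJB1) were found through a gene ID. TJP3, CLDN1, CLDN3, CDH1, DSG2, PKP4 and GJB2 were not matched and are not analysed here.

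The 6 arrays hold liver RNA of adult male pigs of the German landrace breed, all with the same resection. The 3 control arrays come from pigs that received Ringer solution as vehicle. The 3 MSC arrays come from pigs that received porcine bone marrow MSC, which had been differentiated in culture towards hepatocytes, through a central vein. Tissue was taken on the day after surgery. The methods speak of organ samples from 3 different animals per group, read here as 1 liver array per animal. The labels name no animals, so this reading could not be checked. The p-values then measure the spread between these 6 arrays only. Sham-operated livers were not analysed here, so no value shows what the resection itself did. The arrays are called control 1 to 3 and MSC 1 to 3, and the labels give no link between arrays of the same number.

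Tight junctions seal the space between neighbouring cells, and in the liver they close the bile canaliculus off from the blood. Their strands are built from claudins and occludin, which scaffold proteins tie to the cytoskeleton. Adherens junctions join cells through cadherins that bind catenins inside the cell. Desmosomes link the keratin filaments of neighbouring cells, and gap junctions, built from connexins, let small molecules pass between them. The study stained E-cadherin, N-cadherin and ZO-1 in tissue. It also showed western blots of them, which were not quantified because animals varied strongly. It reported that these proteins decreased in liver after ePHx, and that MSC treatment reversed this at least in part. The arrays measure RNA, not protein or its place in the cell. They ask whether the transcripts of such junction genes differ with the cell treatment.

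The values are RMA signals on the log2 scale, in which a step of 1 is a doubling, and a difference is the MSC mean minus the control mean. Rose and fell are used for a gene whose limma p before adjustment was under 0.05 and whose difference was 0.5 or more in either direction, the limits that the study used. The background level of 8.18 is the 95th percentile of the signals of 23 antigenomic control probe sets, whose median was 3.95. It is a high bar, and 22.2% of all clusters lay above it. A gene below it may still carry signal. Signals of different genes are not compared, because probes differ in brightness. The array medians over all clusters lay between 6.51 and 6.59. The liver label was met by the hepatocyte markers, of which 7 of 10 were measured and all 7 lay above the background level in both groups.

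None of the 26 measured junction and keratin genes rose or fell with MSC treatment. By limma 0 of 26 passed the threshold, which 2.73% of all clusters passed (1.24% higher and 1.49% lower). At no size limit, 2 had an unadjusted p under 0.05 (JUP and CLDN7), a share of 7.69% against 6.55% of all clusters. The methods' t-test asks for more than 2-fold, which no member reached in either direction (GJB1, the largest, was at 1.67-fold). Its count of 0 members was therefore fixed by size alone, and it called 32 of all 25385 clusters. After Benjamini-Hochberg adjustment over all clusters limma called 0 members and 0 clusters, and the adjusted p of the members began at 0.746. The 21 members matched by the annotation symbol itself gave the same count of 0. The arrays did not overlap between groups in 3 of 26 members (11.5%, against 11.6% of all clusters): JUP and DSP lay higher and CLDN7 lower. A positive difference was seen in 17 members (65.4%), against 46.7% of all clusters and 50% of the 10244 named genes. The median of all 26 members was 0.15, against -0.01 for all clusters, 0.0001 for the named genes and 0.067 for the clusters above the background level. Of the 26 members 13 lay above that level in both groups, and their own median was not calculated. The array mean over the members was 8.47, 8.26 and 8.39 on control 1, 2 and 3 and 8.44 to 8.49 on the MSC arrays, so that control 1 lay within the MSC range. The 95% intervals of TJP1, CLDN4, CLDN14, CTNNB1, CTNNA1, CTNND1 and DSC2 lay inside the size limit of 0.5 on both sides. Those of the other members reached past it, and apart from JUP and CLDN7 they also included 0.

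**Figure D1:**
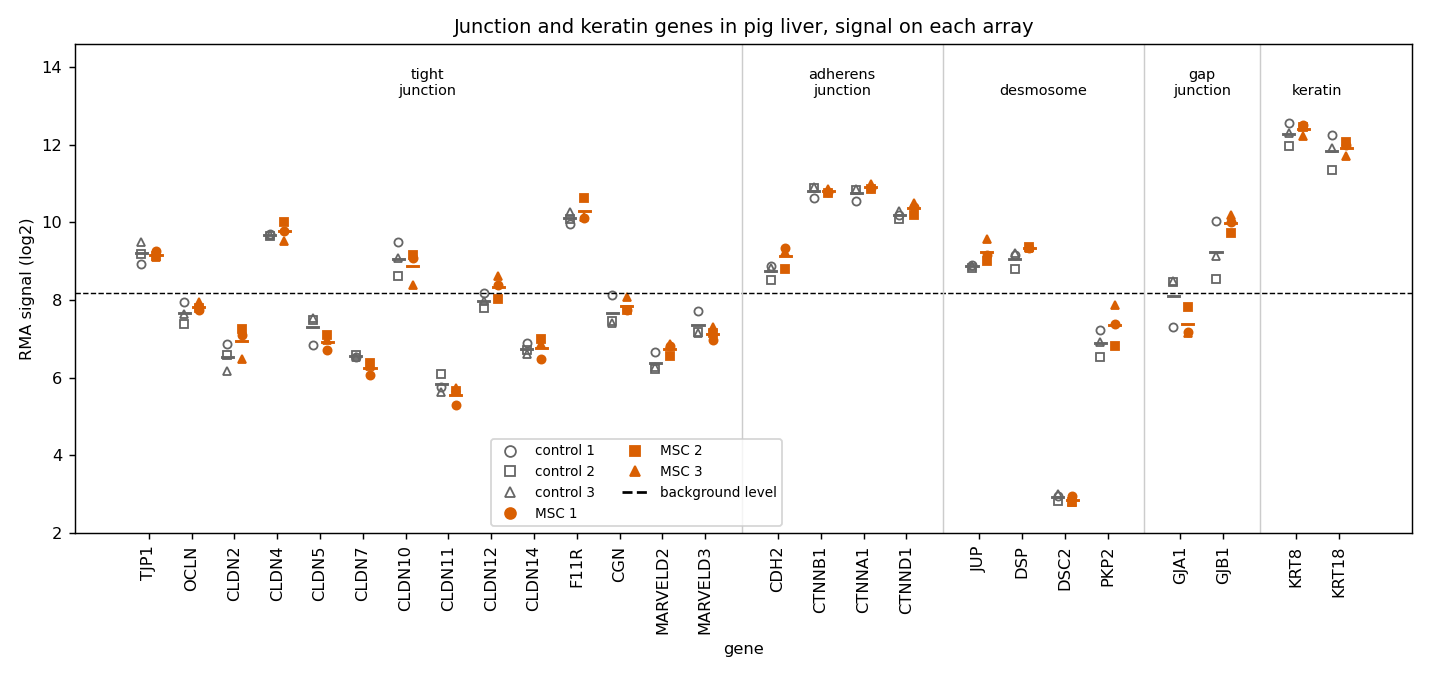
RMA signal (log2, y axis) of the 26 measured junction and keratin genes (x axis) on each array, with open grey symbols for control, filled orange symbols for MSC, short bars for the group means and a dashed line for the background level of 8.18. In GJB1 control 1 (10.05) lies among the MSC arrays, and in GJA1 control 1 (7.31) does so too, while JUP, DSP and CLDN7 show no overlap between groups.

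The 2 measured connexins showed the largest differences among the members, and these ran in opposite directions. GJB1 (transcript cluster 15337156, chromosome X) encodes connexin 32, the main gap junction protein of hepatocytes. The control arrays 1, 2 and 3 read 10.05, 8.55 and 9.13, and MSC 1, 2 and 3 read 10.02, 9.72 and 10.20. Control 2 and control 3 lay below every MSC array, and control 1 lay among the MSC arrays. The mean was 9.24 ± 0.75 in control and 9.98 ± 0.24 in MSC (SD, n = 3 arrays per group), a difference of 0.74 or 1.67-fold (95% interval -0.06 to 1.54), which did not pass by limma (adjusted p = 0.758).

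GJA1 (cluster 15192811, chromosome 1) encodes connexin 43, which in the liver belongs mainly to cells other than hepatocytes. Signals were 7.31, 8.47 and 8.50 for control 1, 2 and 3 and 7.17, 7.82 and 7.14 for MSC 1, 2 and 3. Control 2 and control 3 lay above all MSC arrays and above the background level, whereas control 1 lay below it and within the MSC range. The mean was 8.09 ± 0.68 in control and 7.38 ± 0.38 in MSC (SD, n = 3 arrays per group), a difference of -0.72 (95% interval -1.50 to 0.07), which did not pass by limma (adjusted p = 0.760).

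Single arrays decided whether the connexins passed. Without control 1 GJB1 was at 1.14 and GJA1 at -1.11, both past the threshold, as was CLDN5 at -0.60. These were 3 of 26 members (11.5%), against 8.73% of all clusters in the same fit. No member passed without control 2, control 3 or MSC 1, where 1.75%, 2.58% and 2.25% of all clusters did. Without control 2 the difference of GJB1 was 0.39. Without MSC 2 GJA1 passed at -0.94. With array weights, in which control 1 received the lowest weight (0.45), GJB1 (0.95) and GJA1 passed, together with CLDN5 (-0.52) and PKP2 (0.62), 4 of 26 members (15.4%) against 6.17% of all clusters. With the replicate number as a block GJB1 and GJA1 passed (2 of 26, 7.69%, against 3.29% of all clusters), although the labels do not say that the numbers pair the arrays.

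Control 1 also stood apart from control 2 and control 3 in the array means of several marker lists. The part of cell composition in the connexin values was not tested. The array mean of 5 measured endothelial markers was 8.34 on control 1, against 9.42 and 9.21 on control 2 and 3, and 8.53 to 8.84 on the MSC arrays. That of 9 stellate cell and fibroblast markers was 9.22 on control 1, against 10.07 and 9.94 on control 2 and 3, and 9.25 to 9.54 on the MSC arrays. GJA1, too, was highest on control 2 and control 3. The mean of the 7 hepatocyte markers was 12.54 on control 1, 12.02 and 12.15 on control 2 and 3, and 12.38 to 12.53 on the MSC arrays, and GJB1 was lowest on control 2 and control 3 as well. Not every marker or list followed this. VWF, an endothelial marker, was at 7.58 on control 1, 8.14 on control 2 and 7.60 on control 3, and at 6.79 to 7.43 on the MSC arrays. RGS5, of the stellate cell and fibroblast markers, was highest on control 1 (8.98). The platelet marker mean was 6.16 on control 1, against 6.20 and 6.08 on control 2 and 3. In tissue, fewer cells of a type and less RNA per cell cannot be told apart.

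**Figure D2:**
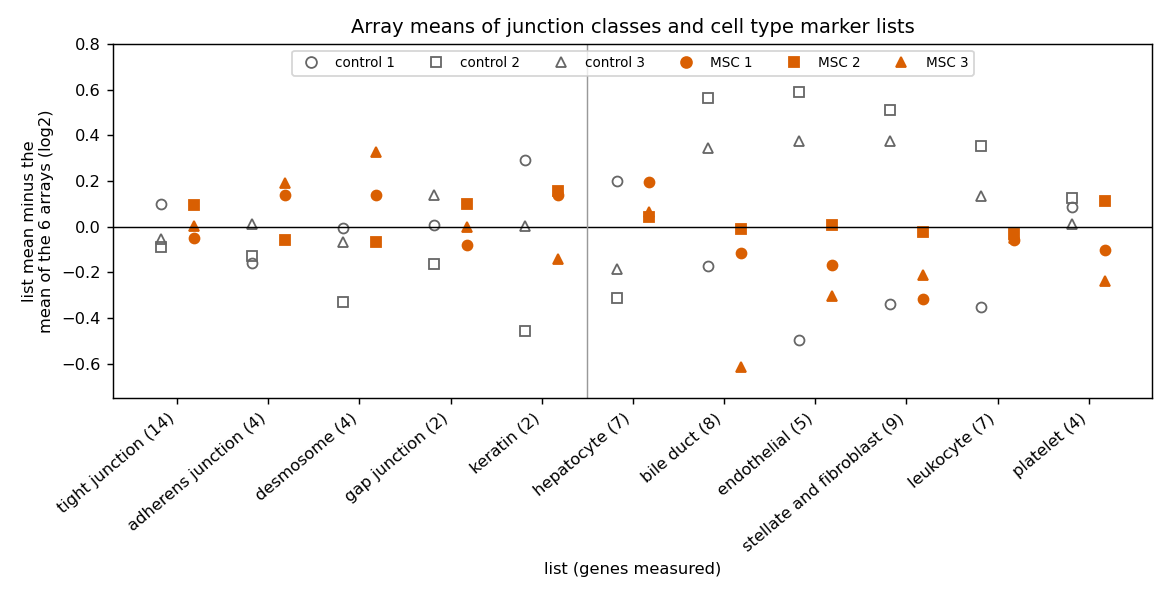
Array mean of each junction class and marker list, as its deviation from the mean of the 6 arrays (log2, y axis), with the number of genes measured in brackets (x axis), open grey symbols for control and filled orange symbols for MSC. Control 2 and control 3 stand above all other arrays in the endothelial, stellate and leukocyte lists, where control 1 is the lowest array.

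Of the 6 desmosome genes 4 were measured, and 3 of these had a positive difference (class median 0.33). Plakoglobin, JUP (cluster 15211667, chromosome 12), links desmosomal cadherins to desmoplakin and also stands in adherens junctions. The control arrays 1, 2 and 3 read 8.92, 8.82 and 8.88, and MSC 1, 2 and 3 read 9.17, 9.02 and 9.57. Every MSC array lay above every control array, as in 5.64% of all clusters. The difference was 0.38 (95% interval 0.01 to 0.75, limma adjusted p = 0.757) and stayed under the size limit of 0.5. It was 0.22 without MSC 3 and 0.49 without MSC 2.

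Desmoplakin, DSP (cluster 15307564, chromosome 7), ties the desmosome to the keratin filaments. Signals were 9.17, 8.79 and 9.22 for control 1, 2 and 3 and 9.34, 9.37 and 9.33 for MSC 1, 2 and 3. The groups did not overlap, and the MSC arrays spanned only 0.04. The difference was 0.29 (95% interval -0.04 to 0.62), smaller than the range of the control arrays (0.43). The plakophilin gene PKP2, whose product strengthens the desmosomal plaque, had signals of 7.23, 6.53 and 6.91 in control and 7.39, 6.83 and 7.86 in MSC, with the groups overlapping and both means below the background level. Its difference of 0.47 (95% interval -0.18 to 1.12) became 0.74 without MSC 2, where it passed, and 0.22 without MSC 3. The desmosomal cadherin DSC2 was between 2.78 and 2.99 on all 6 arrays, under the median of the antigenomic probe sets, and differed by -0.08.

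Of 5 adherens junction genes 4 were measured, all above the background level in both groups. N-cadherin, CDH2 (cluster 15300051, chromosome 6), is expressed by hepatocytes beside E-cadherin. The control arrays 1, 2 and 3 read 8.88, 8.52 and 8.83, and MSC 1, 2 and 3 read 9.34, 8.80 and 9.25. MSC 1 and MSC 3 lay above all controls, and MSC 2 lay among them. The difference of 0.39 (95% interval -0.02 to 0.80) did not pass, except without MSC 2 (0.55).

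Beta-catenin and alpha-catenin connect cadherins to actin. Beta-catenin, CTNNB1, also a transcriptional partner in Wnt signalling, averaged 10.81 ± 0.16 in control and 10.81 ± 0.05 in MSC (SD, n = 3 arrays per group). Its interval ran from -0.29 to 0.29. Alpha-catenin, CTNNA1, differed by 0.17 (95% interval -0.14 to 0.47), and its other cluster on the array differed by 0.16. The p120 catenin gene CTNND1, which keeps cadherins at the membrane, differed by 0.17 (95% interval -0.12 to 0.47).

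Of 17 tight junction genes 14 were measured, 8 with a positive and 6 with a negative difference (median 0.06). ZO-1, TJP1 (cluster 15195619, chromosome 1), is the scaffold that binds claudins and occludin to actin. Signals were 8.94, 9.19 and 9.49 for control 1, 2 and 3 and 9.26, 9.13 and 9.12 for MSC 1, 2 and 3. The MSC arrays lay inside the control range, and the difference was -0.04 (95% interval -0.41 to 0.33). Cingulin, CGN, another cytoplasmic plaque protein, was at 8.12, 7.45 and 7.41 in control and 7.74, 7.73 and 8.07 in MSC, with control 1 the highest array and a difference of 0.19 (95% interval -0.30 to 0.68).

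Among the membrane proteins of the MARVEL family, occludin (OCLN) differed by 0.16 and MARVELD3 by -0.21. Tricellulin, MARVELD2, which seals the corners where 3 cells meet, was at 6.65, 6.22 and 6.27 in control and 6.82, 6.55 and 6.86 in MSC. Its difference of 0.36 (95% interval -0.005 to 0.73) stayed under the size limit with each array left out in turn (0.28 to 0.497), and both means were below the background level. The adhesion molecule JAM-A, F11R, differed by 0.20, with MSC 2 (10.63) above the other 5 arrays, which lay between 9.95 and 10.28.

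The 8 measured claudins of 10 listed split evenly, 4 with a positive and 4 with a negative difference, and only CLDN4 and CLDN10 had both means above the background level. CLDN7, a claudin of duct and other simple epithelia, read 6.54, 6.59 and 6.53 on the control arrays 1, 2 and 3, and 6.08, 6.39 and 6.29 on MSC 1, 2 and 3. All MSC arrays lay below all controls, as in 5.96% of all clusters. The difference was -0.30 (95% interval -0.59 to -0.01, limma adjusted p = 0.746), under the size limit, and neither mean reached the background level. CLDN4, also found on bile duct cells, was at 9.71, 9.65 and 9.67 in control and 9.77, 10.02 and 9.51 in MSC, so that the control arrays lay inside the MSC range.

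CLDN5, the claudin of endothelial cells, read 6.85, 7.49 and 7.55 on the control arrays 1, 2 and 3, and 6.70, 7.10 and 6.96 on MSC 1, 2 and 3. Control 1 again lay within the MSC range. The difference was -0.38 (95% interval -0.86 to 0.11), and neither mean reached the background level. The 5 measured endothelial markers all had a negative difference (median -0.26), which 53.3% of all clusters had. Of the 5 markers 1, VWF, fell by 0.71, and 1.49% of all clusters fell. The part of these markers in the CLDN5 value was not tested.

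CLDN2, a claudin that forms a pore for cations and water, was at 6.87, 6.57 and 6.18 in control and 7.09, 7.27 and 6.48 in MSC, with overlap. Its difference of 0.41 (95% interval -0.16 to 0.98) passed without MSC 3 at 0.64, the 1 member of 26 that did so (3.85%, against 1.93% of all clusters). CLDN12 was at 8.18, 7.80 and 7.96 in control and 8.40, 8.02 and 8.62 in MSC. Its difference of 0.36 (95% interval -0.05 to 0.78) passed without MSC 2 (0.53), where CDH2, PKP2 and GJA1 passed as well, 4 of 26 members (15.4%) against 4.88% of all clusters. The other 3 claudins, CLDN10, CLDN11 and CLDN14, differed by -0.19, -0.27 and 0.03. Control and MSC ranges of CLDN10 spanned 0.87 and 0.77, wider than its difference. CLDN14 is covered by 2 clusters with identical values, both marked as prone to cross-hybridization.

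**Figure D3:**
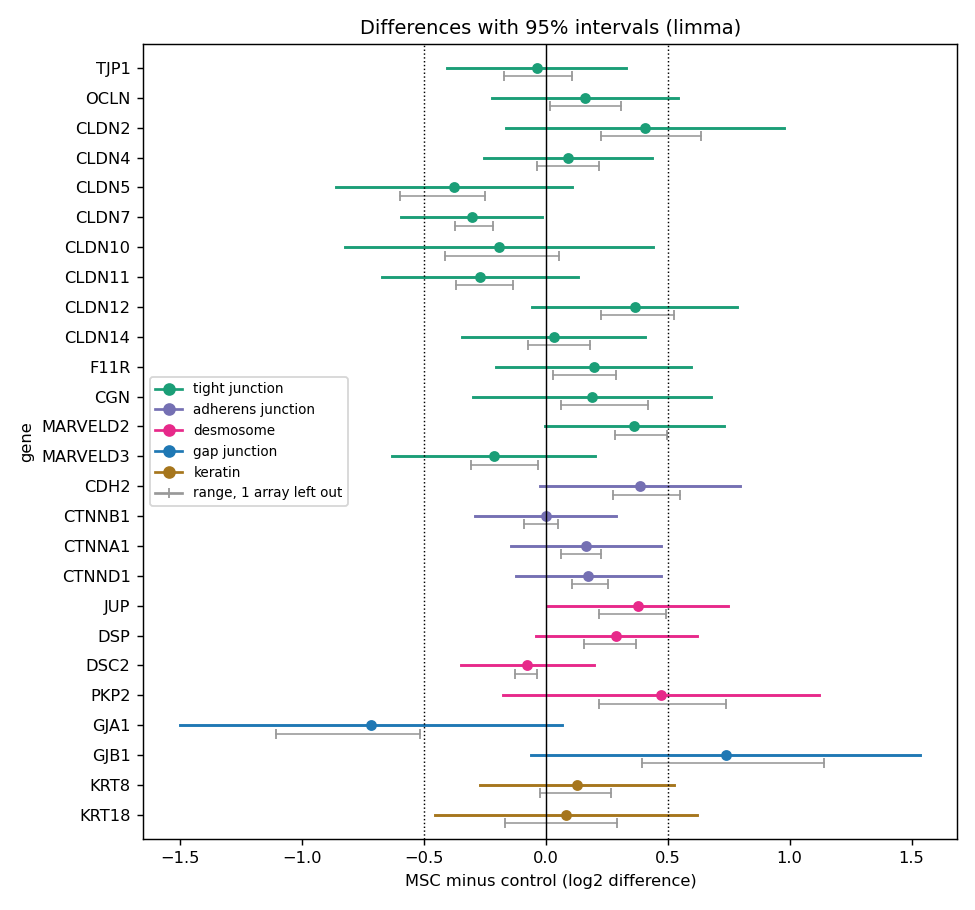
Log2 difference, MSC minus control (x axis), of each measured member (y axis), with 95% intervals from limma as coloured lines and, in grey, the range of the difference when 1 array is left out. Dotted lines mark the size limit of 0.5: only GJB1 (0.74) and GJA1 (-0.72) lie beyond it, and both intervals include 0.

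KRT8 and KRT18 form the filament pair of hepatocytes and were measured well above the background level. KRT8 read 12.55, 11.97 and 12.31 on the control arrays 1, 2 and 3, and 12.51, 12.47 and 12.23 on MSC 1, 2 and 3. KRT18 was at 12.26, 11.34 and 11.92 on the control arrays and 11.99, 12.07 and 11.71 on the MSC arrays. In both genes control 1 was the highest and control 2 the lowest of the 6 arrays. The differences were 0.13 (95% interval -0.27 to 0.53) and 0.08 (95% interval -0.45 to 0.62), smaller than the range of the control arrays (0.58 and 0.91).

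Across the members control 2 was the lowest of the 6 arrays in 11 of 26 genes and the highest in 2. Control 1 was the highest array in 6 genes and the lowest in 4, and in 15 of 26 genes its signal was nearer to the MSC mean than to the mean of the other controls. The range over the 3 control arrays exceeded that over the 3 MSC arrays in 16 of 26 genes, with medians of 0.45 and 0.38. These counts were not made over all clusters, so they cannot be read as particular to the junction and keratin genes. The widest control range was that of GJB1 (1.50), followed by GJA1 (1.18).

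**Figure D4:**
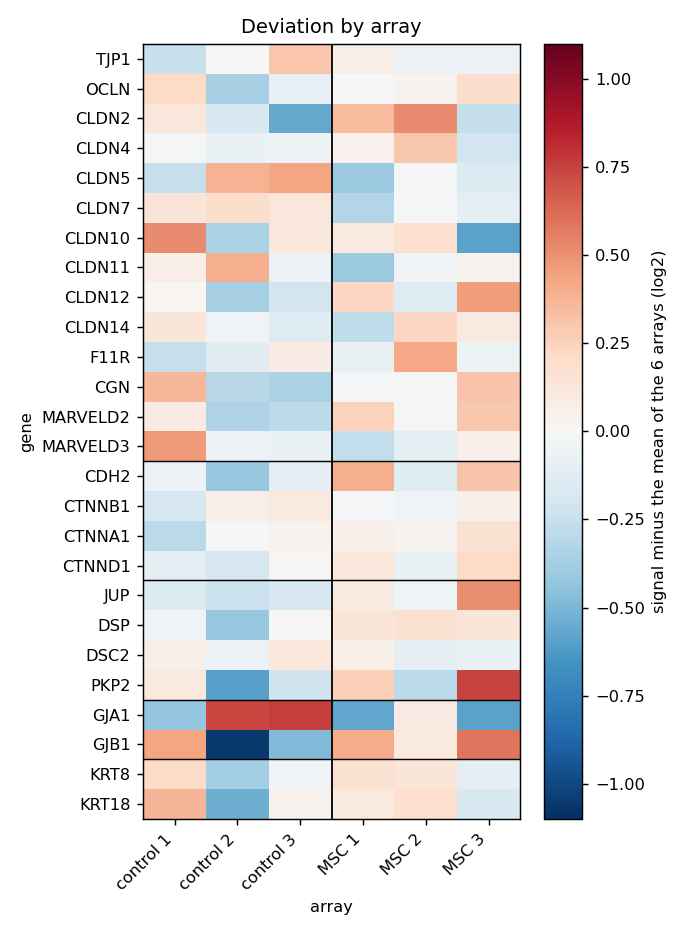
Signal of each measured member (rows) on each array (columns) minus that gene's mean over the 6 arrays (log2), red for higher and blue for lower, with lines between the junction classes. GJA1 is high on control 2 and control 3 and low on control 1, MSC 1 and MSC 3, GJB1 runs the other way, and control 2 is the lowest array in 11 genes.

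Further genes of the same structures were read from lists fixed by name, also with earlier results of these data known. Of 10 other desmosome genes 4 were measured and 1 rose, against 1.24% of all clusters. PERP, a membrane protein needed for desmosome assembly in mouse skin and a target of p53, read 8.82, 8.05 and 8.45 on the control arrays 1, 2 and 3, and 9.76, 8.78 and 9.36 on MSC 1, 2 and 3. MSC 2 lay just below control 1, so the groups overlapped. The difference was 0.86 (95% interval 0.22 to 1.50, adjusted p = 0.736 by limma), and it did not pass without control 2 or MSC 1.

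Of 20 other gap junction genes 11 were measured, 2 fell (1.49% of all clusters did) and none rose, and all 11 lay below the background level in both groups. Of these, connexin 40, GJA5, a gene of arterial endothelium, fell from 7.33 ± 0.35 to 6.70 ± 0.45 (SD, n = 3 arrays per group), and passed in only 2 of the 6 fits with 1 array left out, those without control 1 or MSC 2.

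Of 33 other tight junction genes 17 were measured and none rose or fell. The lipolysis-stimulated receptor LSR, which recruits tricellulin to tricellular contacts, differed by 0.41 (95% interval -0.02 to 0.84) and passed without control 1 or MSC 2, and AMOTL1, of the angiomotin family, differed by -0.32. Of 23 other adherens junction genes 15 were measured and none rose or fell. The nectin gene NECTIN2 was higher on every MSC array than on any control array, as were 5.64% of all clusters. It differed by 0.31 (95% interval 0.02 to 0.59), and neither mean reached the background level. Afadin, AFDN, which links nectins to actin, differed by 0.35 (95% interval -0.04 to 0.73).

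Of 22 other keratins 9 were measured and none rose or fell. All 9 lay below the background level with a negative difference (median -0.09), and a negative difference was seen in 53.3% of all clusters. KRT20 differed by -0.38 and KRT19, a keratin of bile duct cells, by -0.45 (95% interval -0.95 to 0.06). Of 19 transcription factors that repress or maintain epithelial genes 10 were measured, and none rose or fell. Their differences were negative in 9 of 10 (median -0.18), against 53.3% of all clusters. The array means of this list were 6.49, 6.86 and 6.77 on control 1, 2 and 3 and 6.51 to 6.55 on the MSC arrays, so that control 1 lay below every MSC array and only control 2 and control 3 lay above them. Of the 10 factors 8, among them TCF3 and OVOL1, had both means below the background level. TCF3 differed by -0.18, with all MSC arrays below all controls (as in 5.96% of all clusters), and OVOL1 by -0.26.

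Markers of the cell types of the liver were read on the same arrays, and their part in the junction values was not tested. Of all clusters 53.3% had a negative and 46.7% a positive difference, 1.24% rose and 1.49% fell. Of 8 measured bile duct markers 7 had a negative difference (median -0.55), and EPCAM and CFTR fell by 0.77 and 0.94. The array means of this list were 7.73, 8.47 and 8.25 on control 1, 2 and 3 and 7.29 to 7.89 on the MSC arrays, and 5 of the 8 had both means below the background level. Of 9 stellate cell and fibroblast markers 8 were negative (median -0.34), and 1, LRAT, was positive at 0.46 (95% interval 0.001 to 0.91). RGS5 fell by 0.67, and its highest array was control 1 (8.98), the lowest array in the mean of this list. None of the 7 leukocyte markers (median -0.20, array means 7.24 to 7.95 in control and 7.54 to 7.56 in MSC) and none of the 4 platelet markers (median -0.10, array means 6.08 to 6.20 in control and 5.84 to 6.18 in MSC) rose or fell. Of the 7 hepatocyte markers 6 were positive (median 0.10) and the transcription factor HNF4A rose by 0.70. EPCAM passed in only 2 of the 6 fits with 1 array left out, those without control 1 or MSC 2, and HNF4A did not pass without control 2 or MSC 3, while CFTR, VWF and RGS5 passed in all 6. Each of these markers had an adjusted p of 0.736 by limma. Both means of VWF and the MSC means of CFTR and RGS5 were below the background level.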

How the data were processed

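Each of 3 control and 3 MSC liver RNA samples was read on 1 Affymetrix array of the type Porcine Gene 1.0 ST. The deposited values are log2 signals per transcript cluster, which the authors made by RMA (background correction, quantile normalization, median polish) in Affymetrix Expression Console 1.4. Cluster annotation came from a deposited workbook, in which 6 signal columns were left out because no sample label bears their names. The probe counts and cross-hybridization classes deposited there were used as given. Symbols were updated through gene tables. Chromosomes only are printed (build: not given in the sources used).

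MSC was compared with control by limma 3.58.1 in R 4.3.3 over 25385 clusters (19124 main, 6261 rescue), with 4 residual and 3.80 prior degrees of freedom and Benjamini-Hochberg adjustment over all of them. Where clusters shared a gene, the brightest over the 6 arrays stood for it. Precision is limited by the number of arrays. The calculations were tested on simulated data.

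The members and lists were chosen with earlier results of these data known. Named are all members, and of each related list the genes past the threshold or, where there were none, the 2 with the smallest p. Of each marker list those past the threshold are named, and LRAT as the 1 positive stellate cell and fibroblast marker. One gene that met this rule is not reported here. Alternatives were a background filter, other scaling, array weights, another variance prior, a replicate block, other cluster choices, other thresholds, the methods' t-test and each array left out.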

Additional observations from a re-analysis of the deposited data

How the results depend on the processing

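The count of 0 junction and keratin genes past the threshold was kept with the background filter, median centring, repeated quantile normalization and the trended and robust prior. It was also kept with 1 cluster per gene symbol, gene means over clusters, the methods' t-test and adjustment. Several of these settings could hardly change it. The background filter tested only 13 of the 26 members. Among the members only CLDN14, with identical values, and CTNNA1 had a further cluster. The t-test's limit of 2-fold lay beyond the difference of every member. The count of members was 4 with array weights, 2 at an unadjusted p with no size limit, and 0 to 4 with 1 array left out. Over all clusters the count of 692 became 188 with the background filter and 266 with 1 cluster per gene, where fewer clusters were tested, 1565 with array weights, 32 by the methods' t-test, 0 after adjustment, 1662 with no size limit, and 445 (without control 2) to 2215 (without control 1) with 1 array left out. The split of 314 higher and 378 lower became 384 and 305 with median centring. The causes were not tested.

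With the replicate number as a block the count of members was 2 (GJB1 and GJA1) and that of all clusters 834. The deviations of same-numbered arrays from their group means had correlations of -0.02, 0.25 and -0.08. With so few arrays these values cannot tell whether the numbers pair the arrays, and the labels do not say.

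Differences near 0 changed sign. CTNNB1 was at 0.035 with median centring. With 1 array left out TJP1 ran from -0.17 to 0.11, CLDN4 from -0.0355 to 0.22, CLDN10 from -0.41 to 0.053, CLDN14 from -0.074 to 0.18, CTNNB1 from -0.090 to 0.052, KRT8 from -0.024 to 0.27 and KRT18 from -0.17 to 0.29. No other member changed sign. Of the 26 members 12 had both means below the background level.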
